A study of Mus musculus with 6 samples.

Results

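The Ndrg genes are a family of 4 in the mouse, Ndrg1, Ndrg2, Ndrg3 and Ndrg4, and all 4 were found by gene name among the 52405 genes of a kidney proximal tubule RNA-seq table. Ndrg1 was chosen because its level in these libraries was lower after deletion of the insulin-like growth factor 1 receptor, and because the gene is the site of a known inducible Cre driver. Its values are therefore given as a description, with no test. The other 3 genes were included by family name. The RNA came from prominin-1-positive cells, retained on a magnetic column after dissociation of kidney cortex, of adult female C57BL/6 mice with uninjured kidneys. All mice, controls included, had been ovariectomized at postnatal day 21. Control mice gave 3 libraries (Ctr) and mice without Igf1r, the receptor gene, in the proximal tubule gave 3 (KO), each labelled a biological replicate. The sources used here do not give the Cre driver, the floxed allele, whether controls carry either, the exact age or any pooling of animals.

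NDRG proteins share the fold of the alpha/beta hydrolases but lack its catalytic residues, so they are not thought to act as enzymes. Ndrg1, whose name stands for N-myc downstream regulated gene, is repressed by MYCN and MYC and induced by hypoxia and, in human cells, by p53 and by androgens. Its protein is phosphorylated by SGK1, a kinase downstream of insulin and IGF-1 receptors through PI3K and mTORC2, and then by GSK3. It binds recycling endosomes and takes part in the return of E-cadherin to the cell surface. In the kidney it is abundant in the proximal tubule, and a tamoxifen-inducible Cre inserted at Ndrg1 has been used to delete genes there.

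The coding sequence of Ndrg1 holds a feature by which the gene can be told from its relatives, a tandem repeat of 3 units of 10 codons near the 3′ end. In the GENCODE M21 annotation of GRCm38, Ndrg1 (ENSMUSG00000005125) spans chr15:66929318-66969640 on the minus strand, and the units lie side by side in a coding exon. They are shown 5′ to 3′ on the coding strand, with capitals where a base differs from the first unit.
Ndrg1 unit 1 (chr15:66931011-66931040, minus strand): gagggcacccgtagccgctcccataccagc
Ndrg1 unit 2 (chr15:66930981-66931010, minus strand): gagggcCcccgAagccgctcGcaCaccagT
Ndrg1 unit 3 (chr15:66930951-66930980, minus strand): gagggGTcccgtagccgctcccataccagT
The second unit matched the first at 25 of 30 bases and the third matched it at 27. In the same scan for neighbouring stretches of 30 bases, the best match was 17 bases in the coding sequence of Ndrg2 and 15 in those of Ndrg3 and Ndrg4.

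The other members lie on other chromosomes. Ndrg2 (ENSMUSG00000004558) spans chr14:51905271-51914158 on the minus strand, Ndrg3 (ENSMUSG00000027634) chr2:156927345-156992056 on the minus strand, and Ndrg4 (ENSMUSG00000036564) chr8:95676980-95715119 on the plus strand. Coding sequences of pairs of members were 64.5% to 71.2% identical where aligned. The longest run of identical bases between these coding sequences was 33, shared by Ndrg2 and Ndrg4 and shown here:
Ndrg2 and Ndrg4: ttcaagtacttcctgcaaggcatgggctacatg
In Ndrg2 this run lies across exons within chr14:51906305-51906543, minus strand, and in Ndrg4 within chr8:95711114-95713179, plus strand. No 50-base word of the principal transcripts of Ndrg1, Ndrg2 or Ndrg4 occurred on the same strand in a transcript of another gene. In Ndrg3, 4.38% of the words occurred in Gm14278, which was listed at 0 FPKM in all 6 libraries.

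Levels are given in FPKM, fragment numbers divided by transcript length and by the library total, which allows genes of different lengths to be compared. The steps between the lowest values put the libraries at about 19900000 to 25500000 fragments, so that Ndrg1 rested on about 23397 to 43119 fragments per library and Ndrg4 on 26 to 45. The absolute scale of these depths is uncertain by about 2 times, and all fragment numbers here may be lower by that factor. The deleted gene checked the labels: Igf1r was at 18.7, 15.3 and 22.7 FPKM in Ctr replicates 1, 2 and 3 and at 4.78, 7.67 and 5.08 FPKM in KO replicates 1, 2 and 3, and no KO value reached a Ctr value. Its mean was 18.9 ± 3.72 (SD, n = 3) in Ctr and 5.84 ± 1.59 (SD, n = 3) in KO, with a limma adjusted p of 0.267 and an exact two-sided permutation p of 0.1, the smallest that 3 against 3 libraries allow. Both libraries numbered 1 stood apart. On the first principal component, with 50% of the variance, they lay at -30.6 and -25.1 and the other 4 between 11.4 and 15.6. In these 2 libraries the summed FPKM of 5 podocyte markers was 275 (Ctr) and 206 (KO), against 6.91 to 12.6 elsewhere, and that of 8 endothelial markers was 178 and 145, against 15.0 to 23.2. Erythroid markers summed to 297 and 139 there, against 0.990 to 5.40. Proximal tubule markers were abundant everywhere: 10 of them summed to 4426 to 5714 FPKM in Ctr and 4513 to 5175 FPKM in KO.

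Ndrg1 was the most abundant member and was lower in every KO library than in every Ctr library. It was at 666, 525 and 639.8 FPKM in Ctr replicates 1, 2 and 3, and at 396, 369.8 and 462 FPKM in KO replicates 1, 2 and 3. The highest KO library lay below the lowest Ctr library, so the groups did not overlap. Among all genes tested, 4.70% had every KO library below every Ctr library and 3.89% had every KO library above, and since Ndrg1 was chosen on this contrast nothing is read from its place among them. The mean level was 610.2 ± 75.3 FPKM (SD, n = 3) in Ctr and 409 ± 47.4 FPKM (SD, n = 3) in KO, or 67.1% of Ctr. On the log2(FPKM + 1) scale the difference, KO minus Ctr, was -0.57 (SE 0.12). Between libraries of the same number, KO was at 59.5%, 70.5% and 72.2% of Ctr for numbers 1, 2 and 3. Without both libraries numbered 1 the difference was -0.49. In RNA from many cells together, fewer cells that express a gene and less RNA per cell cannot be told apart. Nor do the sources used here say whether either group carries a Cre inserted at Ndrg1. Without that, an effect of such an allele and an effect of Igf1r loss cannot be told apart, and neither was tested.

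**Figure D1:**
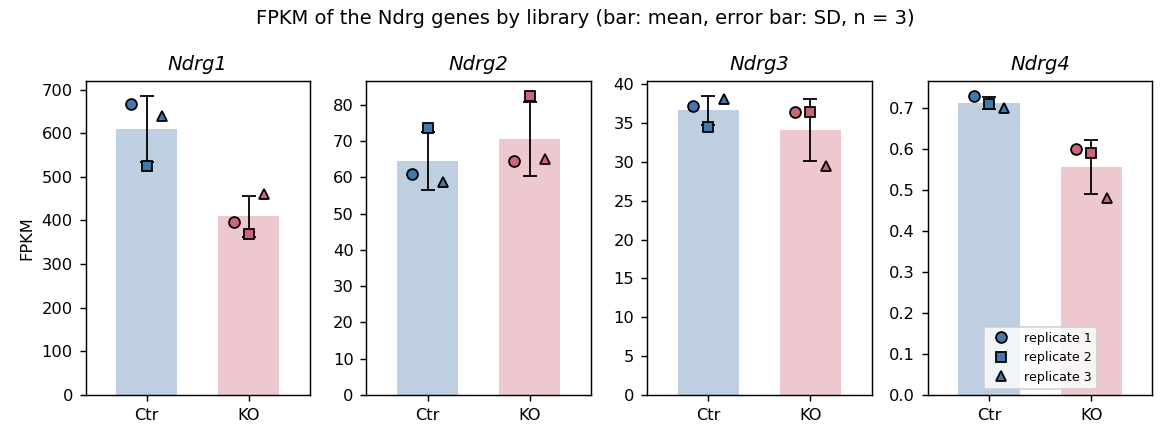
FPKM of each Ndrg gene in the 3 Ctr and 3 KO libraries (1 panel per gene, each with its own axis from 0), where points are single libraries, bars are group means and error bars are the SD (n = 3). Ndrg1 shows all KO libraries (369.8 to 462 FPKM) under all Ctr libraries (525 to 666 FPKM), and the groups of Ndrg2 and of Ndrg3 overlap.

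The genes tested were the 12770 whose mean reached 1 FPKM. Ranked by FPKM within a library, Ndrg1 was number 88, 119 and 98 in Ctr and number 218, 228 and 154 in KO. These ranks describe how abundant the transcript was in each library.

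**Figure D2:**
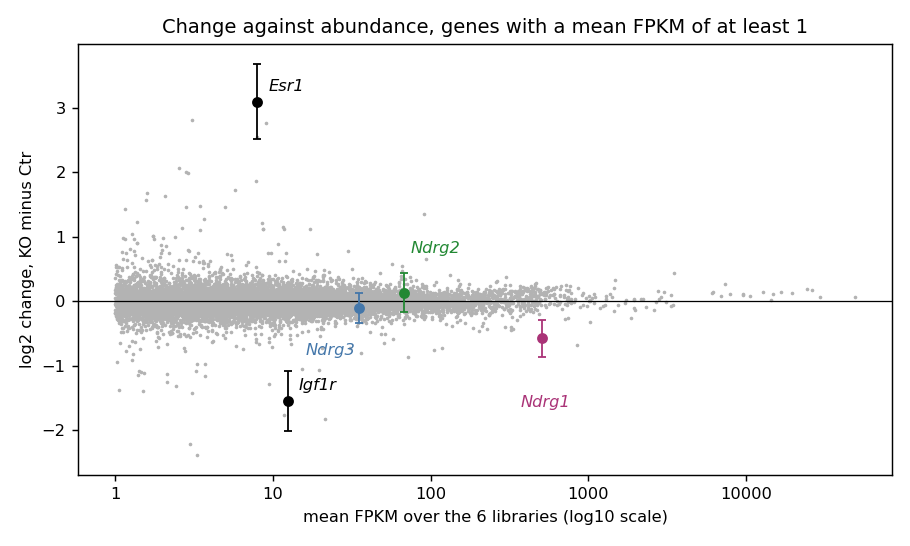
Log2 difference (KO minus Ctr) against mean FPKM over the 6 libraries (log10 axis), each grey point a tested gene, with 95% intervals on the named genes. Ndrg1, chosen for its difference, is at -0.57, Ndrg2 is at 0.13 and Ndrg3 at -0.10, and the intervals of Ndrg2 and Ndrg3 include 0.

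The proximal tubule markers, too, had slightly lower means in KO. This held for all 9 tested markers of the 10 listed, with a median log2 difference of -0.11, against -0.02 over all genes tested. Their summed FPKM was 5129 ± 652 (SD, n = 3) in Ctr and 4767 ± 357 (SD, n = 3) in KO, or 0.929 of Ctr, and the groups overlapped. Most of this sum came from Slc34a1, with means of 2415 FPKM in Ctr and 2246 FPKM in KO, and Slc27a2, with 1310 and 1262 FPKM. Without both libraries numbered 1 the median was -0.05, with 2 markers higher and 7 lower. Slc22a6, an organic anion transporter gene named after its values were seen, was at -0.38 (SE 0.15, limma unadjusted p = 0.0346, adjusted p = 1.0), and no other of these markers had an unadjusted p under 0.05. Set against this sum, a ratio added after the data were seen, Ndrg1 was at 127, 119 and 112 for each 1000 of marker FPKM in Ctr replicates 1, 2 and 3, and at 85.9, 81.9 and 89.2 in KO replicates 1, 2 and 3. KO was at 0.719 of Ctr on this scale, a value that carries over the choice of Ndrg1 on this contrast and is given as a description. Prom1, which encodes the protein used for selection, was at 76.5 ± 9.71 FPKM (SD, n = 3) in Ctr and 77.0 ± 4.43 FPKM (SD, n = 3) in KO. Summed markers of the thick ascending limb were at 1385, 1935 and 1843 FPKM in Ctr and 1549, 2855 and 1586 FPKM in KO. Distal convoluted and connecting tubule markers summed to 516 to 605 FPKM in Ctr and 593 to 719 FPKM in KO. Collecting duct principal cell sums were 339 to 624 and 453 to 586 FPKM, and intercalated cell sums 138 to 246 and 161 to 217 FPKM. The groups overlapped in each of these lists. Without both libraries numbered 1, the median log2 difference of the principal cell list went from 0.04 to -0.21, with 0 genes higher and 6 lower in place of 5 and 1. The intercalated cell median went from 0.11 to -0.08, the distal one from 0.00 to 0.15 and the thick ascending limb one from 0.07 to 0.06. Slc12a3, of the distal list, was at 0.27 (SE 0.11, limma unadjusted p = 0.0470) and did not pass the adjusted threshold. Besides Slc22a6, no other tested cell type marker had an unadjusted p under 0.05.

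**Figure D3:**
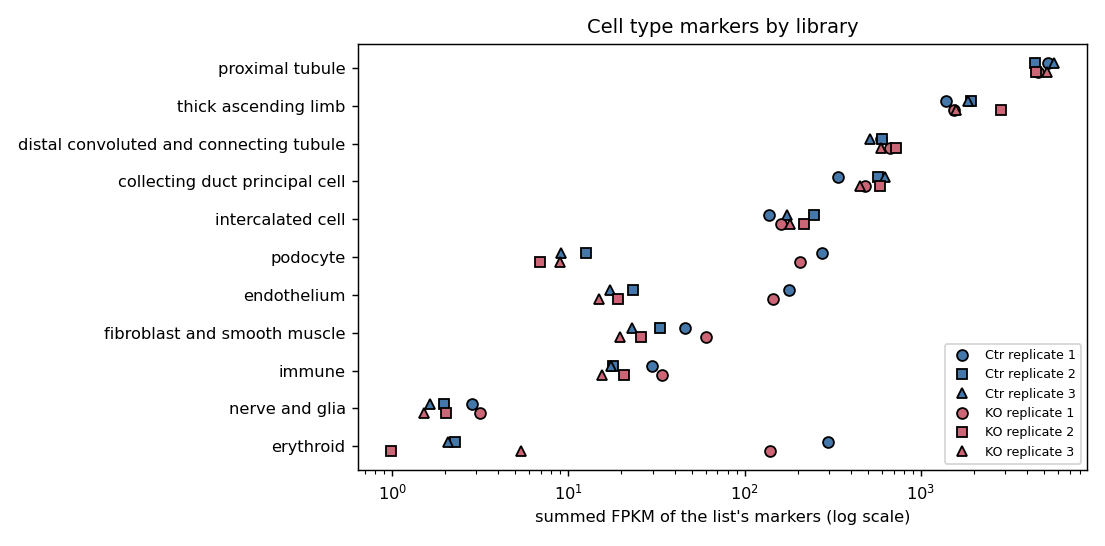
Summed FPKM of marker lists of proximal tubule and other kidney cell types in each of the 6 libraries (log10 axis). Podocyte, endothelial and erythroid sums are high in both libraries numbered 1, while proximal tubule sums lie between 4426 and 5714 FPKM in all 6.

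Ndrg2, best known from astrocytes and, in the rat kidney, as an aldosterone-responsive gene of the collecting duct, was the second most abundant member. It was at 60.9, 73.7 and 58.8 FPKM in Ctr replicates 1, 2 and 3 and at 64.5, 82.4 and 64.9 FPKM in KO replicates 1, 2 and 3. Replicate 2 was the highest library of each group, and the groups overlapped. The mean was 64.5 ± 8.09 FPKM (SD, n = 3) in Ctr and 70.6 ± 10.2 FPKM (SD, n = 3) in KO. The log2 difference was 0.13 (SE 0.13), with a 95% interval from -0.17 to 0.43 and a limma adjusted p of 1.0 over all genes tested. Between libraries of the same number, KO was at 106%, 112% and 110.5% of Ctr for numbers 1, 2 and 3. How many of all genes tested were higher in KO at all 3 numbers was not counted, so nothing is read from this. With the replicate number as a block the difference was 0.13 (SE 0.07), with a limma adjusted p of 0.892.

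Ndrg3, whose protein accumulates in hypoxic human cells by binding lactate, was at 37.2, 34.5 and 38.1 FPKM in Ctr replicates 1, 2 and 3 and at 36.4, 36.5 and 29.5 FPKM in KO replicates 1, 2 and 3. KO replicate 3 was the lowest library, and the other 2 KO libraries lay within the Ctr range. The mean was 36.6 ± 1.86 FPKM (SD, n = 3) in Ctr and 34.1 ± 4.02 FPKM (SD, n = 3) in KO. The log2 difference was -0.10 (SE 0.10), with a 95% interval from -0.34 to 0.13 and a limma adjusted p of 1.0.

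Ndrg4, a gene mainly of heart and brain, was barely detected and was under the minimum mean of 1 FPKM, so it was not among the genes tested in the main fit. It was at 0.73, 0.71 and 0.70 FPKM in Ctr replicates 1, 2 and 3 and at 0.60, 0.59 and 0.48 FPKM in KO replicates 1, 2 and 3. All KO libraries lay below all Ctr libraries, on about 44 to 45 fragments in Ctr and 26 to 42 in KO. The same order was found in 4.70% of the genes tested, which leave Ndrg4 out. The mean was 0.713 ± 0.0153 FPKM (SD, n = 3) in Ctr and 0.557 ± 0.0666 FPKM (SD, n = 3) in KO, or 78.0% of Ctr. The log2 difference was -0.14 (SE 0.08) in a fit with no filter, with a 95% interval from -0.34 to 0.07. In that fit limma gave an unadjusted p of 0.149 and an adjusted p of 0.985. The log2(FPKM + 1) scale understates the change at so low a level, and with log2(FPKM + 0.1) the difference was -0.31 (SE 0.29). Of 6 nerve and glia markers, 1 was at 0 in every library, and the list summed to 1.64 to 2.84 FPKM in Ctr and 1.52 to 3.13 FPKM in KO. The part of such cells in the level of Ndrg4 was not tested.

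The order Ndrg1, Ndrg2, Ndrg3, Ndrg4 held in 6 of 6 libraries. Ndrg1 was 7.12 to 10.9 times as high as Ndrg2 in Ctr and 4.49 to 7.11 times as high in KO. Ndrg2 exceeded Ndrg3 by 1.54 to 2.13 times in Ctr and by 1.77 to 2.26 times in KO, and Ndrg3 exceeded Ndrg4 by 48.6 to 61.8 times over the 6 libraries. Neighbours in the order were thus separated in every library. Ndrg1 made up 87.1%, 82.8% and 86.8% of the family's summed FPKM in Ctr replicates 1, 2 and 3, against 79.6%, 75.6% and 83.0% in KO replicates 1, 2 and 3, and these shares overlapped. The summed FPKM of the 4 genes was 712 ± 69.3 (SD, n = 3) in Ctr and 515 ± 36.7 (SD, n = 3) in KO, most of it Ndrg1.

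The sum of Ndrg2, Ndrg3 and Ndrg4 was 98.8, 109 and 97.6 FPKM in Ctr replicates 1, 2 and 3, against 102, 119 and 94.9 FPKM in KO replicates 1, 2 and 3. The groups overlapped. The mean was 102 ± 6.24 FPKM (SD, n = 3) in Ctr and 105 ± 12.7 FPKM (SD, n = 3) in KO, a difference of 3.53 FPKM (exact two-sided permutation p = 0.7), and without KO replicate 2 it was -3.55 FPKM.

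Around Ndrg1 the annotation places 2 noncoding genes on the opposite strand. Gm2895, a long noncoding RNA whose start lies at the promoter of Ndrg1, shares 318 bases with it. It was at 0.03, 0.09 and 0.08 FPKM in Ctr replicates 1, 2 and 3 and at 0.25, 0.21 and 0.13 FPKM in KO replicates 1, 2 and 3, so that every KO library was above every Ctr library. These levels, from about 2.1 to 20.4 fragments, were under the minimum and were not tested. Of the genes tested, 3.89% had every KO library above every Ctr library. Gm17035, an antisense gene that covers 1501 bases at the 3′ end of Ndrg1, the repeat included, was at 0.40 FPKM in Ctr replicate 2, at 0.47 FPKM in KO replicate 3 and listed at 0 in the other 4. Of the 50-base words of the Ndrg1 transcript, 14.6% lie antisense to these 2 genes. The library kit keeps the strand, but the sources used here do not say whether reads were counted by strand, and the split of reads between the strands is uncertain.

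The nearest protein-coding genes did not share the level of Ndrg1. Ccn4, a secreted matricellular protein gene 6.12 kb away, had a mean of 0.127 ± 0.0808 FPKM (SD, n = 3) in Ctr and 0.177 ± 0.0115 FPKM (SD, n = 3) in KO, and Tg, the thyroglobulin gene 78.6 kb away, 0.287 ± 0.116 and 0.330 ± 0.178 FPKM. On the other side, St3gal1, a sialyltransferase gene 133 kb away, was at 4.89 and 3.41 FPKM in the libraries numbered 1 and at 0.39 to 0.66 FPKM in the other 4. Zfat, 1114 kb away, was at 0.38 to 0.55 FPKM in Ctr and 0.39 to 0.87 FPKM in KO. Beside the other members, Mettl17, near Ndrg2, had a log2 difference of -0.32 (SE 0.14), and Dsn1, near Ndrg3, one of 0.32 (SE 0.17). Setd6 and Cnot1, next to Ndrg4, were at -0.03 (SE 0.16) and 0.08 (SE 0.08). No neighbour that was tested passed limma's adjusted threshold.

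Genes upstream of Ndrg1, and those that act with its protein, were followed in 8 lists. Of their 118 genes, 111 were tested and 0 passed a limma adjusted p of 0.05, as did 3 of all 12770 genes (0.0235%), namely Esr1, Gm2436 and Gm2446. At an unadjusted limma p under 0.05 there were 3 higher in KO and 1 lower among the 111, where 1.82% of all genes tested were higher and 1.69% lower. How many of all genes tested had a higher or a lower mean in KO was not counted. The genes of a list also share the same libraries, so nothing is read from counts of direction on any list.

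Among kinases that act on NDRG1 and their regulators, 15 of 19 had a lower mean in KO, with a median log2 difference of -0.10, against -0.02 over all genes tested. Without both libraries numbered 1 the median was -0.04, again with 15 of 19 lower, against -0.01 over all genes. Among those with the smallest p were Mtor, the kinase of both mTOR complexes, at -0.24 (SE 0.11), and Phlpp1, a phosphatase of AKT, at -0.15 (SE 0.10). Sgk1, the NDRG1 kinase itself and here named for its role, was at 70.5, 74.6 and 82.0 FPKM in Ctr replicates 1, 2 and 3 and at 71.6, 92.8 and 89.3 FPKM in KO replicates 1, 2 and 3, and the groups overlapped. Its log2 difference was 0.15 (SE 0.11).

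In hypoxia sensing, 7 of 8 genes had a lower mean in KO, with a median of -0.07, or -0.03 without both libraries numbered 1. Egln3, an oxygen-dependent prolyl hydroxylase and itself a target of HIF, was at 5.78, 6.18 and 6.06 FPKM in Ctr replicates 1, 2 and 3 and at 4.31, 3.42 and 4.42 FPKM in KO replicates 1, 2 and 3. Every KO library was below every Ctr library, as in 4.70% of all genes tested. The log2 difference was -0.48 (SE 0.11, limma unadjusted p = 0.00349, adjusted p = 1.0). Vhl, part of the ubiquitin ligase that removes HIF, was at -0.27 (SE 0.13), and Egln2, another prolyl hydroxylase, at 0.09 (SE 0.07). Hif1a, the oxygen-regulated subunit named for its role, was at 29.2 ± 3.15 FPKM (SD, n = 3) in Ctr and 28.7 ± 3.45 FPKM (SD, n = 3) in KO.

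Of the HIF target genes other than Ndrg1, 19 of 22 were tested, 7 with a higher and 12 with a lower mean in KO, and the median was -0.03, or -0.01 with 9 higher and 10 lower without both libraries numbered 1. Car9, the hypoxia-induced carbonic anhydrase of the cell surface, was at 2.66, 2.31 and 3.08 FPKM in Ctr replicates 1, 2 and 3 and at 4.57, 3.79 and 5.32 FPKM in KO replicates 1, 2 and 3. Every KO library was above every Ctr library, as in 3.89% of all genes tested. The log2 difference was 0.59 (SE 0.14, limma unadjusted p = 0.00440, adjusted p = 1.0). Pdk1, an inhibitor of pyruvate dehydrogenase, was at 0.22 (SE 0.18), and Ero1l, an oxidase of the endoplasmic reticulum, at -0.20 (SE 0.13).

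Of the p53 target genes, 16 of the 20 tested had a higher mean in KO, with a median of 0.07, against -0.02 over all genes tested. Without both libraries numbered 1 it was 18 of 20, with a median of 0.11, against -0.01 over all genes. Cdkn1a, the cell cycle inhibitor p21, was at 9.36, 5.91 and 5.74 FPKM in Ctr replicates 1, 2 and 3 and at 18.5, 19.7 and 11.4 FPKM in KO replicates 1, 2 and 3. Every KO library was above every Ctr library in Cdkn1a, Phlda3 and Ccng1, as in 3.89% of all genes tested. The log2 difference of Cdkn1a was 1.12 (SE 0.24, limma unadjusted p = 0.00224, adjusted p = 1.0). Phlda3, an inhibitor of AKT, was at 0.62 (SE 0.16, limma unadjusted p = 0.00593, adjusted p = 1.0), and Ccng1, a cyclin, at 0.18 (SE 0.08).

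The medians of the remaining lists, too, shifted without both libraries numbered 1. The MYC network, whose MYC and MYCN proteins repress NDRG1, had a median of -0.01 over 11 tested genes, with Mga at -0.19 (SE 0.11), Mlxip at -0.10 (SE 0.14) and Mlxipl at 0.14 (SE 0.17). Its median was 0.01 after quantile normalization, and without both libraries numbered 1 it was 0.04, with 9 genes higher and 2 lower in place of 5 and 6. Myc, named for its role, was at 4.78, 7.52 and 3.55 FPKM in Ctr replicates 1, 2 and 3 and at 3.70, 4.4 and 6.19 FPKM in KO replicates 1, 2 and 3, and the groups overlapped. Corticosteroid receptors and their targets had a median of 0.03 over 12 tested genes, or 0.11 without both libraries numbered 1, with the glucocorticoid receptor gene Nr3c1 at -0.20 (SE 0.14), Fkbp5, its target, at -0.20 (SE 0.12), and Hsd11b1, which regenerates active glucocorticoid, at -0.29 (SE 0.18). Genes of adherens junctions and endosomal recycling, the setting in which NDRG1 acts, had a median of -0.03 over 10 tested genes, or 0.00 without both libraries numbered 1, with beta-catenin, Ctnnb1, at -0.09 (SE 0.07), Rab4a at -0.12 (SE 0.09) and Rab5a at -0.11 (SE 0.08). The immediate early genes, which respond to cell dissociation, had a median of -0.01 over 12 tested genes. Without both libraries numbered 1 it was 0.17, against -0.01 over all genes tested, with 12 of 12 higher in KO. That setting leaves fewer libraries in each group, and nothing is read from the count. Among the immediate early genes, Junb was at 0.10 (SE 0.13), Ier2 at 0.09 (SE 0.12) and Ier3 at 0.21 (SE 0.20) over all 6 libraries. No gene of these lists passed limma's adjusted threshold.

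**Figure D4:**
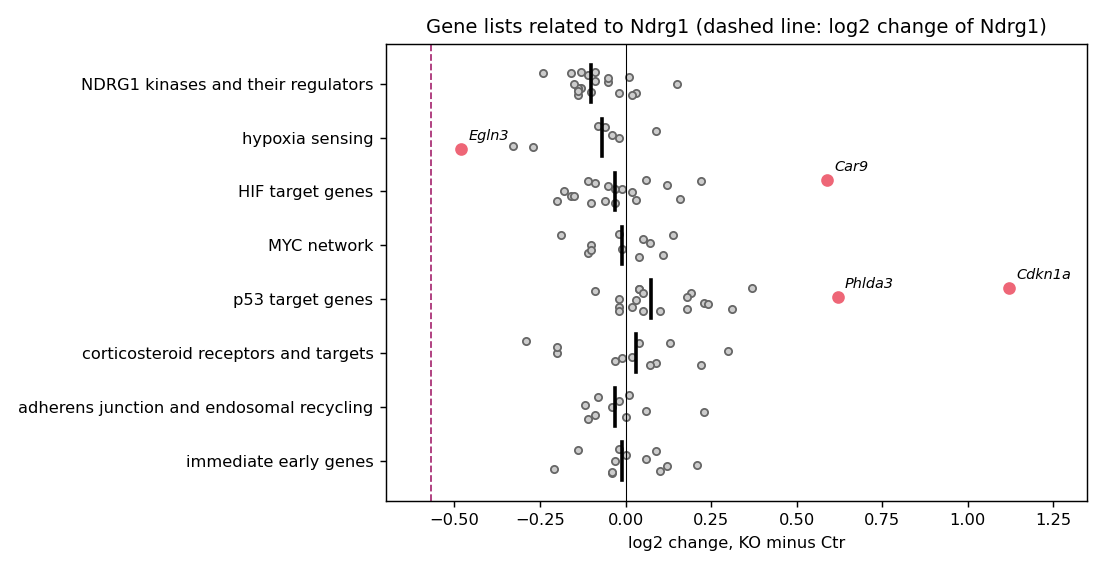
Log2 difference (KO minus Ctr) of every tested gene on the 8 lists, each point a gene, red where limma's unadjusted p is under 0.05, with a black bar at each list's median and a dashed line at the Ndrg1 value of -0.57. The 4 red points are Egln3 (-0.48), Car9 (0.59), Phlda3 (0.62) and Cdkn1a (1.12).

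The genes most like each member were named by Pearson correlation of log2(FPKM + 1) over the 6 libraries, among 12770 genes, and all correlations share the same libraries and the contrast of KO with Ctr. Closest to Ndrg1 were Lyst (r = 0.996), which encodes a regulator of lysosomal trafficking, Eps8l1 (r = 0.993), Gosr1 (r = 0.990), a Golgi SNARE gene, Zbtb7b (r = 0.981) and Acot6 (r = 0.978). Lyst was at 4.38, 2.61 and 3.96 FPKM in Ctr replicates 1, 2 and 3 and at 1.68, 1.41 and 2.30 FPKM in KO replicates 1, 2 and 3. In Lyst as in Ndrg1, replicate 2 was the lowest library of each group. For Ndrg2 the closest were Gm9732, Top2a, Nol3, Pygl and Susd4 (r from 0.989 to 0.998), and each had its highest library of either group in replicate 2. For Ndrg3 they were Rexo4, Slc27a4, Gm15720, Atic and Wdr92 (r from 0.986 to 0.994), each lowest in KO replicate 3. For Ndrg4 they were Urgcp, Abt1, Qsox2, Tep1 and Daxx (r from 0.967 to 0.986), each with all KO libraries below all Ctr libraries. Such shared patterns follow from choosing the genes by correlation over these same 6 libraries, so nothing is read from them.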

How the data were processed

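The authors deposited FPKM values per gene, with 2 decimals, for 6 libraries, in a single table. The submitters' processing notes list STAR 2.6.0c, RSEM and DESeq2 1.28.1 without saying what each did. The sources used here do not give the genome build or the annotation. FPKM is relative to each library's total. Values were used as log2(FPKM + 1), a scale that understates the change of low genes, and the 12770 genes whose mean reached 1 FPKM were fitted with limma 3.58.1 in R 4.3.3 (two-sided moderated test, intensity trend), with Benjamini-Hochberg adjustment over all of them and a threshold of 0.05. Single sums were given exact permutation tests (scipy 1.17.1). The limma step was also tested on simulated data. Gene positions and transcripts came from GENCODE M21, which held 52147 of the 52405 identifiers (99.5%). Depth was estimated from the steps of low values in genes with 1 transcript; a first search ended at the limits of its range and was widened, so the depths are approximate. A score of wholeness (1 where every value is a whole fragment) was 0.62 to 0.69 at these depths and -0.19 to -0.15 at depths about 2 times lower, but the absolute scale remains uncertain, and fragment numbers cover counting only.

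The family, its gene lists and the tests were chosen with earlier results of these data known. Genes named are the members, Igf1r, Prom1, the 3 genes of each list with the smallest limma p, the 2 nearest protein-coding genes on each side of a member and genes overlapping it, and the 5 genes most correlated with each member. A gene that this rule names is not reported here. Sgk1, Hif1a, Myc, Slc22a6, Slc34a1, Slc27a2, Slc12a3, Gm14278 and the genes past the threshold were named after their values were seen. Deviations from group means of same-numbered libraries correlated at 0.63, 0.29 and 0.37 for numbers 1, 2 and 3. All were above 0.1, the minimum set. Ctr replicate 3 with KO replicate 2 (0.30) and Ctr replicate 2 with KO replicate 3 (0.15) also passed it. The data thus set the libraries numbered 1 apart but do not show numbers 2 and 3 to be pairs, and the labels state no pairing. The main fit has no block, and every SE, interval and p is from it unless the block, another fit or the permutation test is named. For genes under the minimum mean they are from the fit with no filter. Alternatives were another pseudocount (0.1), no filter or a minimum mean of 5, size factors, quantile normalization, no trend, the replicate block, and leaving out each library or both libraries numbered 1.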

Additional observations from a re-analysis of the deposited data

How the results depend on the processing

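The log2 difference of Ndrg1 ran from -0.68 to -0.49 over 14 alternatives, that of Ndrg2 from 0.01 to 0.23 (adjusted p from 0.884 to 1.0) and that of Ndrg3 from -0.15 to -0.01 (adjusted p from 0.922 to 1.0). That of Ndrg4 ran from -0.31 to -0.10 over 12 alternatives, and was -0.31 with log2(FPKM + 0.1); the filter alternatives gave no value for it, since its estimate already uses no filter and a minimum mean of 5 removes it. The number of genes past the threshold, 3, was 1 with a minimum mean of 5 FPKM and 6 without both libraries numbered 1. Leaving out single libraries it ran from 0 to 4: limma gave 0 without Ctr replicate 1, Ctr replicate 2 or KO replicate 3 (465, 694 and 430 genes at an unadjusted p under 0.05), 1 without Ctr replicate 3 or KO replicate 2, and 4 without KO replicate 1. With the replicate block it was 4, the Ndrg1 difference was -0.57, and the block changed no call of a member. The difference in summed FPKM of Ndrg2, Ndrg3 and Ndrg4 ran from -3.55 (without KO replicate 2) to 8.74 when single libraries were left out; the cause was not tested. The median half-width of a 95% interval, 0.29 on the log2 scale, limits what 3 against 3 libraries can show.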
